A study of Drosophila melanogaster with 9 samples.

Results

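Tubulin, microtubule-associated, motor and actin regulator genes of axons were followed in RNA of the larval brain and nerve cord of Drosophila melanogaster at the 1st instar. The members are 37 genes listed by name for these roles, and the table held 36 of them among its 17421 genes. betaTub60D had no row under its current annotation ID and was not analysed here. The unit here is normalised CPM, reads per gene divided by the authors' size factor of each library and rescaled to a mean library total of 1e6. Totals of single libraries on this scale still differed, from 927100 in Canton-S replicate 1 to 1.09e6 in elav5 replicate 3. All 36 reached the mean of 1 that was needed for testing, as did 9384 genes in all. alphaTub85E was below this value in every Canton-S library and reached the filter through mutant libraries.

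The groups were Canton-S, a common wild-type strain, elav5, which carries a deletion allele of elav, and elav5/fne, which carries that allele together with a deletion of fne. All larvae were homozygous, picked by a visible marker and raised at 25 °C. Each group had 3 libraries. Loss of fne alone was not analysed here. Both genes encode RNA-binding proteins of the ELAV/Hu family, which act in neurons on splicing and on the choice of the 3' end of messenger RNAs. Neither the extent of each deletion nor a shared genetic background of the strains is stated in the labels, so other differences between the strains cannot be told apart from the named losses. The labels do not say whether libraries of a group came from separate animals, and p-values measure only how far these samples differ, which may be technical spread.

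Microtubules are polymers of alpha- and beta-tubulin that run along axons with their plus ends outward. Kinesins carry vesicles, precursors of synapses and mitochondria toward the plus ends, and cytoplasmic dynein carries cargo back to the cell body. Associated proteins bundle, stabilise or sever microtubules and guide their growing tips, while actin filaments shape the growth cone under the control of small GTPases. Reads came from the 3' ends of transcripts and were summed per gene, so the use of single 3' ends was not analysed here.

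Libraries held 15241461 to 18822734 reads, and 3 reads, taken as the floor of detection, corresponded to 0.150 to 0.196 normalised CPM. This covers counting error only. elav was at 1580 to 1720 normalised CPM in Canton-S libraries, 21.1 to 39.4 with elav5 and 30.4 to 71.3 with elav5/fne, and fne at 4420 to 5450, 4540 to 4950 and 278 to 522. The 9 neuronal marker genes found of 10 listed, which hold synaptic and transmitter genes such as nSyb and ChAT, were all detected, at a summed 5860 to 6090 normalised CPM in Canton-S, while elav5 had 5320 to 5950 and elav5/fne 3450 to 4300. The sum of 6 neuroblast (neural stem cell) markers was 90.7 to 97.5, 102 to 117 and 368 to 478. The sum of 9 glial markers was 2820 to 3060, 2830 to 4320 and 2380 to 3040, with Gs2 alone at a mean of 1608 in Canton-S. Single glial markers differed in direction against Canton-S. In elav5 nrv2 rose while repo and Mdr65 fell, in elav5/fne Gli rose while wrapper fell, and the others did not pass. The 16 muscle markers summed to 740 to 930 in Canton-S. In elav5 that sum was 7800, 2174 and 679 in replicates 1, 2 and 3, and for the double mutant it was 1771, 4356 and 8760. The 13 gut markers, of which betaTry was at 0 in every library, summed to 20.7 to 111, 27.03 to 814 and 41.4 to 1170. The 8 hemocyte (blood cell) markers summed to 142 to 227, 8.45 to 283 and 206 to 583. Most of this sum came from Col4a1 and vkg, with means of 115 and 61.3 in Canton-S. The highest group mean of any other hemocyte marker was 7.19, for Hml in elav5/fne. elav5/fne replicates 2 and 3 and elav5 replicate 1 had muscle and gut sums above those of every other library.

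Of 6 kinesin genes 4 (unc-104, Khc-73, Klp64D and Klp68D) fell in elav5/fne against Canton-S, beside 17.5% of all tested genes called lower, and Khc and Klc of kinesin-1 did not pass. The dynein heavy chain gene Dhc64C and its regulator Lis-1 fell, and nudE did not pass. Neuronal markers fell with them, 8 of 9, with a median log2 change of -0.79. None of these 9 motor and regulator genes passed in elav5. Among members called in the single mutant, the largest change was in sn, the gene of the actin bundler fascin, which fell in elav5 and rose in elav5/fne. Among tubulin genes, alphaTub84D fell in both mutants, and betaTub97EF rose in elav5/fne. In elav5 against Canton-S, 1 of the 36 members was higher, 3 were lower and 32 did not pass (limma, adjusted p under 0.05 over all genes tested). These 4 called members are 11.1%, beside 15.2% of all tested genes. In elav5/fne against Canton-S, 8 were higher, 10 lower and 18 did not pass, beside 43.2% of all tested genes called. The 8 include alphaTub85E, which was tested only because of its mutant levels. In elav5/fne against elav5, the test of whether the mutants differ, 4 were higher, 10 lower and 22 did not pass, 38.9% beside 30.8%.

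Higher members in elav5/fne against Canton-S stood beside 25.8% of all genes called higher, and lower members beside 17.5% called lower. In elav5/fne against elav5 these backgrounds were 18.5% and 12.3%, and in elav5 against Canton-S 8.17% and 7.04%. The median log2 change of the members was 0.05, -0.06 and -0.08 in the order of comparisons above, and that of all tested genes 0.02, 0.15 and 0.15. A pseudocount of 1 was added before taking log2, so fold changes of low genes come out too small. Libraries of the groups compared did not overlap for 10, 22 and 16 members, beside 35.6%, 58.3% and 43.8% of all tested genes. Scaling moved the split of calls. In elav5/fne against Canton-S there were 5 higher and 14 lower members with the trimmed mean of M-values (TMM), 5 and 11 with library totals and 5 and 12 with median of ratios, and the median of all genes was 0.02 with TMM. In elav5/fne against elav5 there were 3 higher and 12 lower with TMM or median of ratios, and 6 higher and 9 lower with library totals, where the median of all genes was 0.23, and it was -0.12 in elav5 against Canton-S under the same scaling. No called member changed its direction under any alternative.

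**Figure D1:**
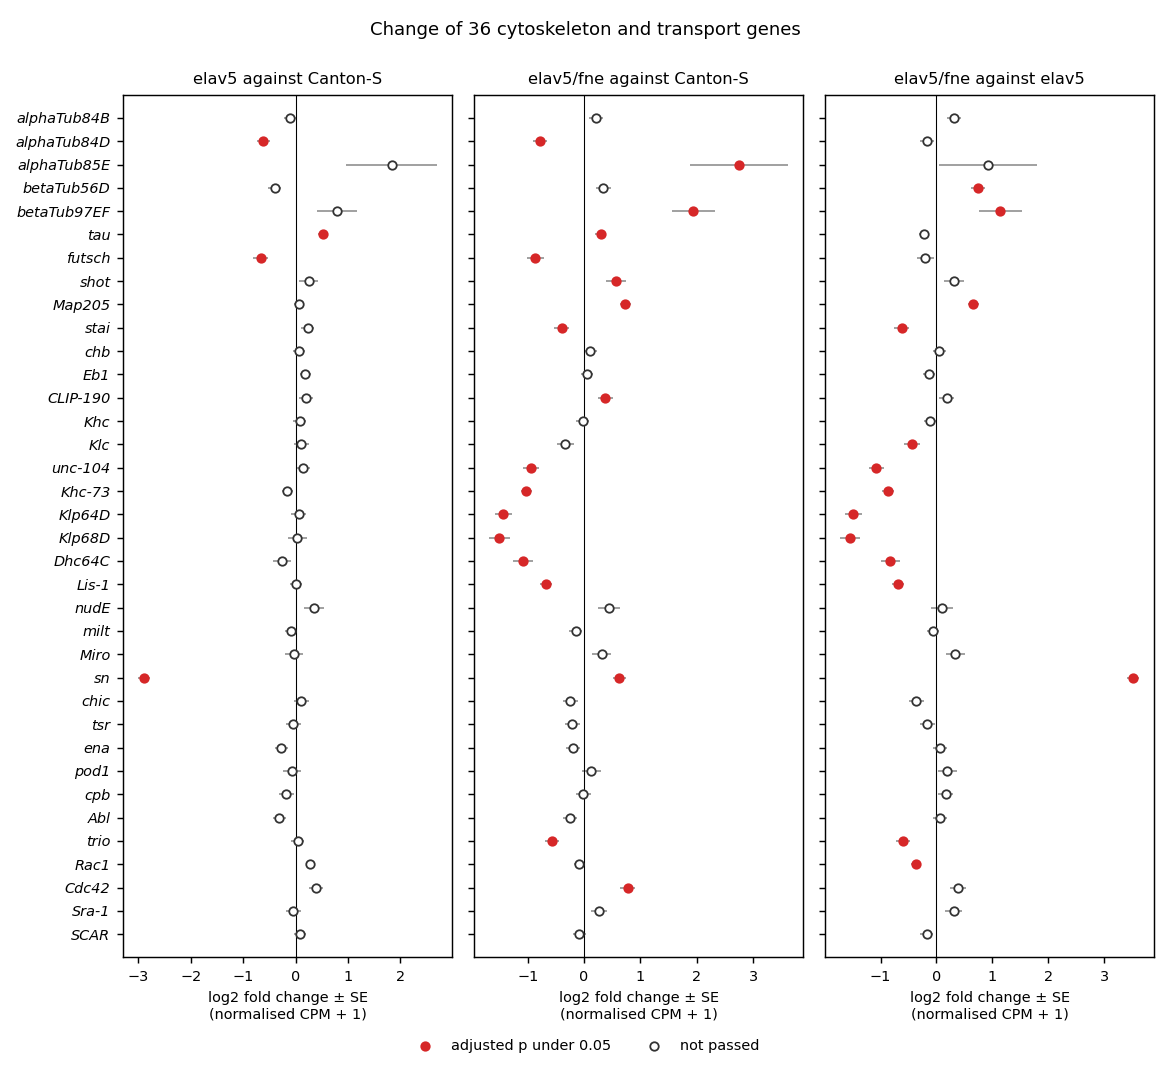
Log2 fold change on the normalised CPM + 1 scale (x axis, bars are SE) of each of the 36 members (y axis) in the 3 comparisons; filled red points passed an adjusted p under 0.05. The kinesin and dynein genes lie near 0 in elav5, and unc-104, Khc-73, Klp64D, Klp68D, Dhc64C and Lis-1 lie left of 0 as filled points in both comparisons of elav5/fne, while sn lies far to the left in elav5 and to the right in elav5/fne.

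Kinesin-3 motors carry synaptic vesicle precursors and related cargo. unc-104, the fly counterpart of KIF1A, was at 979, 899.97 and 1024 normalised CPM in Canton-S replicates 1, 2 and 3, at 985, 1101 and 1109 in elav5 and at 607, 507 and 413 in elav5/fne. Every elav5/fne library lay below all 6 others, at a group mean of 52.6% of that of Canton-S (log2 change -0.94, SE 0.13, adjusted p = 0.000406) and 47.8% of that of elav5 (log2 change -1.08, adjusted p = 0.000289). Against Canton-S the elav5 value was 0.14 (log2, adjusted p = 0.517). Khc-73, the other kinesin-3 gene of the list, was at 382, 349.995 and 369.9 in Canton-S, 323, 364 and 305 in elav5 and 189, 194 and 159.9 in elav5/fne. Its elav5/fne libraries again lay below all others, and it fell by 1.02 on the log2 scale against Canton-S (SE 0.10, adjusted p = 5.47e-05) and by 0.87 against elav5 (adjusted p = 0.000237).

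Klp64D and Klp68D encode the motor subunits of heterotrimeric kinesin-2, which carries choline acetyltransferase along fly axons and builds sensory cilia. Klp64D was at 34.0, 37.1 and 34.6 normalised CPM in Canton-S, 32.4, 34.9 and 43.8 in elav5 and 14.5, 11.5 and 11.5 in elav5/fne. Klp68D was at 39.0, 38.3 and 44.8, at 34.1, 38.4 and 55.2, and at 15.5, 12.4 and 13.4 in the same order. Both had elav5/fne libraries below all others, with group means of 35.5% and 33.7% of Canton-S, the lowest shares among the 36 members in that comparison. Klp64D fell by 1.43 on the log2 scale (SE 0.15, adjusted p = 6.43e-05) and Klp68D by 1.50 (SE 0.18, adjusted p = 0.000148). Against elav5 the log2 changes were -1.49 (adjusted p = 8.13e-05) and -1.54 (adjusted p = 0.000212). Kap3, which encodes the non-motor subunit of the same complex and is no member, was looked up after these values were seen. It fell against Canton-S by 0.60 on the log2 scale (SE 0.14, adjusted p = 0.00602) and against elav5 by 0.71 (adjusted p = 0.00364).

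Kinesin-1, the general anterograde motor, is made of the heavy chain Khc and the light chain Klc. Khc was at 53.8, 70.7 and 59.0 normalised CPM in Canton-S, 65.0, 62.8 and 65.01 in elav5 and 61.6, 63.1 and 54.4 in elav5/fne, and groups overlapped in all 3 comparisons. Its log2 changes were 0.08, -0.03 and -0.11 (adjusted p = 0.682, 0.865 and 0.543). Klc was at 71.3, 66.7 and 73.4 in Canton-S, 69.0, 76.3 and 83.7 in elav5 and 61.3, 63.8 and 44.4 in elav5/fne, where replicate 3 was lowest. Its elav5/fne libraries lay below all others, it fell against elav5 by 0.44 on the log2 scale (SE 0.15, adjusted p = 0.0452), and it did not pass against Canton-S (-0.33, adjusted p = 0.0918). The call against elav5 was lost without Canton-S replicate 1, 2 or 3, elav5 replicate 2 or 3, or elav5/fne replicate 1 or 3 (log2 -0.51 to -0.28, adjusted p = 0.0557 to 0.125). Against Canton-S it passed under 3 other scalings, with -0.40 for library totals, -0.48 for TMM and -0.45 for median of ratios.

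Dhc64C encodes the heavy chain of cytoplasmic dynein, the retrograde motor. It was at 20.4, 29.7 and 25.6 normalised CPM in Canton-S, 19.3, 24.9 and 18.5 in elav5 and 10.8, 11.4 and 11.7 in elav5/fne. All elav5/fne libraries were lower than the other 6, and the fall was 1.08 on the log2 scale against Canton-S (a log2 change of -1.08, SE 0.17, adjusted p = 0.000825) and 0.82 against elav5 (-0.82, adjusted p = 0.00591). Lis-1, an activator of dynein named for human lissencephaly, was at 175, 166 and 170.02 in Canton-S, 152, 169 and 195 in elav5 and 103, 115 and 101 in elav5/fne. It too was lower in each elav5/fne library than in all others (log2 -0.68, SE 0.11, adjusted p = 0.000759 against Canton-S, and -0.69, adjusted p = 0.00113 against elav5). nudE, a partner of Lis-1, had the opposite sign and did not pass against Canton-S (58.5 ± 9.89, 74.4 ± 9.29 and 80.9 ± 18.8 normalised CPM, SD, n = 3 each; log2 0.45, adjusted p = 0.0875 in elav5/fne). Without elav5/fne replicate 3, its lowest library of that genotype at 59.2, nudE passed with 0.65 (adjusted p = 0.0116).

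The adaptors of mitochondrial transport did not pass in any comparison. milt, the fly counterpart of TRAK proteins, links kinesin-1 to Miro, a GTPase of the outer mitochondrial membrane. milt was at 178 ± 11.6, 168 ± 13.0 and 162 ± 19.7 normalised CPM (SD, n = 3) in Canton-S, elav5 and elav5/fne, and Miro at 27.5 ± 5.02, 26.8 ± 4.02 and 34.1 ± 3.62. The SE of their log2 changes was 0.11 and 0.17, so changes of that size are not resolved here.

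Of the 9 neuronal markers, 8 fell in elav5/fne against Canton-S and none passed in elav5. Their log2 changes ran from -2.33 for VGAT, the vesicular GABA transporter gene, to 0.06 for cac, a calcium channel gene, with a median of -0.79, and the 6 neuroblast markers all rose (median log2 change 2.06). The medians over the 6 kinesin genes and the 3 dynein genes were -0.98 and -0.68. In these bulk samples fewer neurons and less RNA per neuron cannot be told apart. The part of cell composition in the fall of motor genes was not tested. Without elav5 replicate 1 and elav5/fne replicate 3, unc-104, Khc-73, Klp64D, Klp68D, Dhc64C and Lis-1 each passed in both comparisons of elav5/fne. The same genes passed with the muscle level as a covariate. Every elav5/fne library had a muscle sum above every Canton-S library. Against Canton-S, neither setting can therefore separate muscle RNA from genotype.

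**Figure D2:**
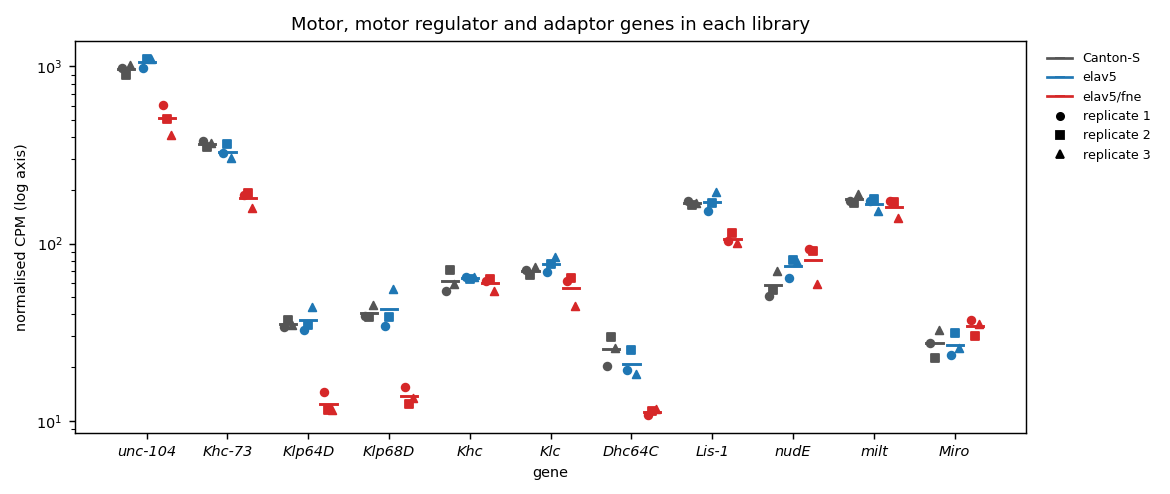
Normalised CPM on a log axis (y) of 11 motor, motor regulator and adaptor genes (x) in each library; colours are genotypes, marker shapes replicate numbers and horizontal lines group means. For unc-104, Khc-73, Klp64D, Klp68D, Dhc64C and Lis-1 the 3 red points of elav5/fne lie below all grey and blue points, and for Khc, milt and Miro the groups overlap in every comparison.

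The alpha-tubulin genes alphaTub84B and alphaTub84D encode nearly identical proteins, and whether reads of such copies can be shared between them depends on the counting method, which no source used here names. alphaTub84B was at 1315, 1653 and 1399 normalised CPM in Canton-S, 1260.3, 1296 and 1513 in elav5 and 1857, 1684 and 1513 in elav5/fne. It did not pass in either mutant (log2 change -0.10 and 0.21, adjusted p = 0.609 and 0.181). alphaTub84D was at 165, 169 and 143 in Canton-S, 90.5, 112 and 109.6 in elav5 and 102, 92.3 and 83.2 in elav5/fne, and no mutant library reached the Canton-S range. In elav5 it fell by 0.61 on the log2 scale (SE 0.12, adjusted p = 0.0103), in elav5/fne it fell by 0.78 (adjusted p = 0.000691), and the mutants did not differ beyond the test (-0.17, adjusted p = 0.338). As a share of the reads of the 3 alpha-tubulin genes, alphaTub84D made up 9.91% ± 1.06 with Canton-S, 7.08% ± 0.726 with elav5 and 5.16% ± 0.0283 with elav5/fne (SD, n = 3). alphaTub84B passed in elav5/fne against elav5 without elav5 replicate 3 (0.39, adjusted p = 0.0458) and not with it (0.31, adjusted p = 0.0802).

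The beta-tubulin gene betaTub56D, the general form in the fly, was at 1098, 1400.2 and 1209 normalised CPM in Canton-S, 883, 878 and 1047 in elav5 and 1766, 1542 and 1394 in elav5/fne. The elav5 libraries lay below and the elav5/fne libraries largely above Canton-S, and the direct comparison of the mutants passed (log2 0.74, SE 0.13, adjusted p = 0.0019). Against Canton-S the changes were -0.40 in elav5 (adjusted p = 0.0639) and 0.34 in elav5/fne (adjusted p = 0.0522). Both passed in some settings: the former without elav5 replicate 3 (-0.48, adjusted p = 0.0427), the latter without Canton-S replicate 2 (0.44, adjusted p = 0.0348), elav5 replicate 3 (0.34, adjusted p = 0.0395) or elav5/fne replicate 3 (0.42, adjusted p = 0.0326).

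betaTub97EF, a form known from gut, trachea and blood cells of the fly, was at 29.2, 22.8 and 24.3 normalised CPM in Canton-S, 96.2, 27.3 and 33.7 in elav5 and 89.6, 96.1 and 116 in elav5/fne. All elav5/fne libraries exceeded every Canton-S library, and elav5 replicate 1 stood with them. The gene rose in elav5/fne (log2 1.94, SE 0.38, adjusted p = 0.0027) and did not pass in elav5 (0.79, adjusted p = 0.188). With elav5/fne replicate 3 and elav5 replicate 1 both left out, the rise was 1.83 (adjusted p = 2.94e-05), and it was 1.14 with the muscle level as a covariate (adjusted p = 0.0289). elav5/fne replicate 1, with betaTub97EF at 89.6, had a gut marker sum of 41.4, within the Canton-S range, and a muscle sum of 1771, above the Canton-S maximum of 930. Muscle sums of all elav5/fne libraries exceeded those of Canton-S, so the covariate cannot separate muscle RNA from genotype. The part of other tissues in the rise was not tested. Against elav5 the change was 1.15 (adjusted p = 0.0464), and this call was lost with TMM scaling (1.04, adjusted p = 0.0648) and without any 1 library other than elav5 replicate 1 (log2 0.80 to 1.22, adjusted p = 0.0666 to 0.151). Without elav5 replicate 1 it was 1.69 (adjusted p = 9.85e-05).

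alphaTub85E, known from muscle and from support cells of sense organs, was at 0.651, 0.755 and 0.659 normalised CPM in Canton-S, 26.1, 3.20 and 0.917 in elav5 and 5.87, 6.56 and 27.5 in elav5/fne. Within each mutant its order was that of the muscle markers, and it was highest in elav5/fne replicate 3 and elav5 replicate 1, which had muscle sums of 8760 and 7800. Since it reached the filter through mutant libraries, its call in elav5/fne (log2 2.76, SE 0.87) is given as a description. That call was lost without Canton-S replicate 1, 2 or 3 or elav5/fne replicate 3 (2.09 to 2.78, adjusted p = 0.0693 to 0.0930). With every gene tested and no filter, it did not pass (adjusted p = 0.0506), and with the muscle level as a covariate the change was 0.45 (adjusted p = 0.475). Every elav5/fne library had a higher muscle sum than any Canton-S library, so the covariate cannot separate muscle RNA from genotype. The part of other tissues in the rise of alphaTub85E was not tested.

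**Figure D3:**
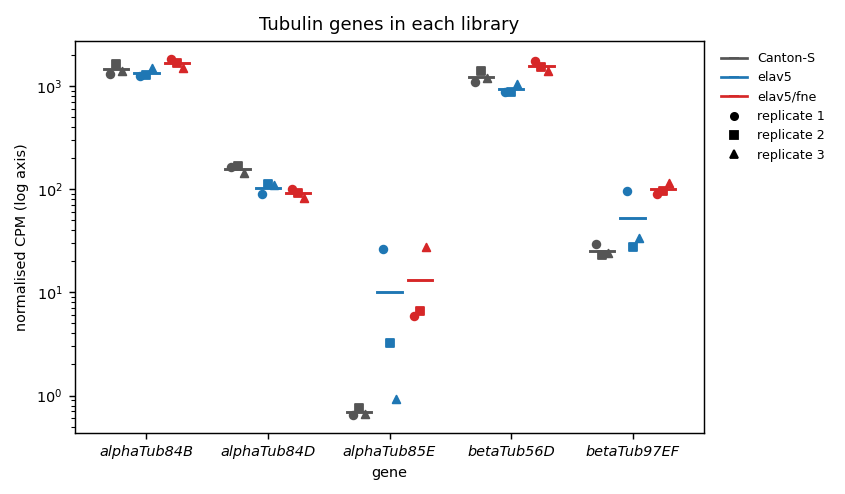
Normalised CPM on a log axis (y) of the 5 tubulin genes measured (x) in each library; colours are genotypes, marker shapes replicate numbers and horizontal lines group means. alphaTub84D is lower in all 6 mutant libraries than in Canton-S, and alphaTub85E spreads from 0.917 to 26.1 within elav5.

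Microtubule-associated proteins differed in direction from gene to gene. futsch, the fly counterpart of MAP1B, which stabilises axonal and synaptic microtubules, was at 871, 1091 and 941 normalised CPM in Canton-S, 644, 714 and 487 in elav5 and 548, 492 and 551 in elav5/fne. All 6 mutant libraries were lower than Canton-S, by 0.67 on the log2 scale in elav5 (log2 -0.67, SE 0.14, adjusted p = 0.0154) and 0.86 in elav5/fne (log2 -0.86, adjusted p = 0.0011). The call in elav5 was lost without Canton-S replicate 2, the library with the highest futsch level (-0.58, adjusted p = 0.0666). tau, which binds along axonal microtubules, was at 188, 202 and 193 in Canton-S, 252, 295 and 291 in elav5 and 256, 239.7 and 222 in elav5/fne, with no mutant library in the Canton-S range. The rise of tau was 0.52 on the log2 scale in elav5 (SE 0.10, adjusted p = 0.00764), and 0.30 for the double mutant (adjusted p = 0.0298). The latter call was lost without Canton-S replicate 1, 2 or 3 or elav5/fne replicate 1 or 2 (0.25 to 0.33, adjusted p = 0.0521 to 0.101), and under TMM scaling (0.15, adjusted p = 0.238).

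stai, which encodes stathmin, a protein that binds tubulin dimers, was at 805, 847 and 833 normalised CPM in Canton-S, 891, 937 and 1099.7 in elav5 and 739, 649 and 522 in elav5/fne. Libraries of the genotypes did not overlap, with elav5 highest and elav5/fne lowest. The difference between the mutants passed (log2 -0.62, SE 0.13, adjusted p = 0.00592), as did that of elav5/fne from Canton-S (-0.39, adjusted p = 0.0355), while elav5 did not pass against Canton-S (0.23, adjusted p = 0.263). The call against Canton-S was lost without Canton-S replicate 1, 2 or 3 or elav5/fne replicate 2 or 3 (-0.41 to -0.26, adjusted p = 0.0722 to 0.101), and with the muscle level as a covariate (-0.12, adjusted p = 0.529). In that comparison the covariate cannot separate muscle RNA from genotype. Map205, a microtubule-binding protein that also binds Polo kinase, was at 244, 269.8 and 239 in Canton-S, 261, 265 and 262 in elav5 and 462, 426 and 367 in elav5/fne. Its 3 elav5/fne libraries were the highest, and it rose by 0.73 on the log2 scale against Canton-S (SE 0.10, adjusted p = 0.000325) and by 0.66 against elav5 (adjusted p = 0.000939).

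shot, the fly spectraplakin, joins actin to microtubules. It was at 198, 205 and 208 normalised CPM in Canton-S, 305, 258 and 180.2 in elav5 and 255, 299.6 and 359 in elav5/fne. Its order within each mutant was that of the muscle sums, with elav5 replicate 3 lowest and elav5/fne replicate 3 highest. It passed in elav5/fne against Canton-S (log2 0.57, SE 0.19, adjusted p = 0.0331), a call lost without Canton-S replicate 1, 2 or 3 or elav5/fne replicate 2 or 3 (0.44 to 0.58, adjusted p = 0.0726 to 0.103) and with TMM scaling (0.42, adjusted p = 0.0857). With the muscle level as a covariate the change was 0.09 (adjusted p = 0.593). Muscle sums of all elav5/fne libraries exceeded those of Canton-S, so this covariate cannot separate muscle RNA from genotype. The part of other tissues in the rise of shot was not tested.

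**Figure D4:**
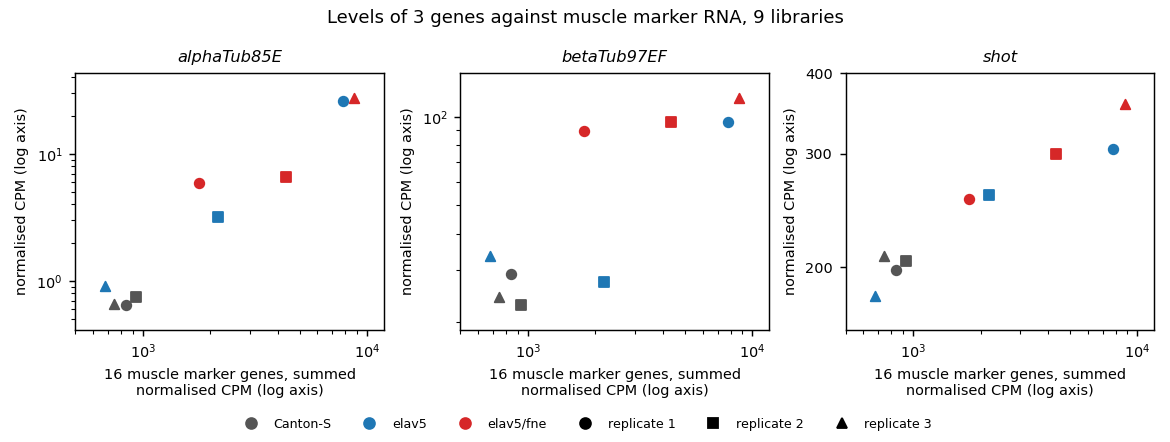
Levels of alphaTub85E, betaTub97EF and shot in normalised CPM (y axes, log) against the summed normalised CPM of the 16 muscle markers (x axes, log) in the 9 libraries; colours are genotypes and shapes replicate numbers. alphaTub85E and shot are highest where the muscle sum is highest, whereas betaTub97EF is at 89.6 in elav5/fne replicate 1 with a muscle sum of 1771 and at 27.3 in elav5 replicate 2 with a muscle sum of 2174.

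Of the 3 genes of plus-end tracking proteins, 1 passed in 1 comparison. Eb1, which marks growing tips, was at 126 ± 4.44, 144 ± 15.4 and 131 ± 10.8 normalised CPM (SD, n = 3) in Canton-S, elav5 and elav5/fne, and chb, the CLASP gene, at 90.7 ± 5.45, 94.8 ± 5.51 and 98.7 ± 13.1. Neither passed in any comparison, with log2 changes between -0.13 and 0.19. CLIP-190, a linker of plus ends to cargo and the cortex, was at 110.2 ± 12.9, 127.0 ± 18.7 and 143 ± 14.3 and passed in elav5/fne against Canton-S (0.38, SE 0.14, adjusted p = 0.0483). That call was lost without Canton-S replicate 1, 2 or 3, elav5 replicate 2 or elav5/fne replicate 1, 2 or 3 (0.28 to 0.44, adjusted p = 0.0583 to 0.166), and under TMM scaling (0.23, adjusted p = 0.181).

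The actin bundler gene sn (chromosome X, 7964024 to 7986601, dm6) had the largest log2 change of the 36 members in elav5 on the normalised CPM + 1 scale. It was at 112, 124 and 107 normalised CPM in Canton-S, 14.7, 15.8 and 13.1 in elav5 and 189, 181 and 160.5 in elav5/fne. The 3 genotypes did not overlap, and the elav5 mean was 12.7% and the elav5/fne mean 155% of Canton-S. sn fell by 2.89 on the log2 scale in elav5 (SE 0.11, adjusted p = 1.01e-06), rose by 0.63 in elav5/fne (adjusted p = 0.00168) and was 3.52 higher in elav5/fne than in elav5 (adjusted p = 3.5e-07). elav was low in both mutants, and the cause of their difference in sn was not tested. These 3 calls held in each alternative tried, and without any 1 library the elav5 value lay between -2.95 and -2.82. The opposite-strand gene sws overlaps sn at one end and was at 37.2 ± 1.78, 45.1 ± 5.70 and 52.2 ± 5.31 (SD, n = 3), with a log2 change of 0.27 in elav5 (adjusted p = 0.194). sws rose in elav5/fne against Canton-S (0.47, adjusted p = 0.015), as sn did. The overlap lies where both genes start, whereas reads came from the 3' ends of transcripts. Without a known strand setting, any reads within the overlap cannot be told apart.

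The other 5 actin-binding members did not pass in any comparison. chic, the profilin gene that supplies actin monomers, was at 769 ± 101, 836 ± 150.03 and 645 ± 28.1 normalised CPM (SD, n = 3) in Canton-S, elav5 and elav5/fne, and tsr, the cofilin gene that severs filaments, at 379 ± 56.6, 369 ± 53.1 and 327 ± 25.0. ena, an Ena/VASP protein that extends filaments, was at 517 ± 7.54, 432 ± 78.7 and 449.6 ± 26.9. pod1, a coronin that binds actin and microtubules, and cpb, the beta subunit of the capping protein, lay between 34.4 and 43.6 in every group mean. Their log2 changes lay between -0.36 and 0.20. ena passed in elav5 without elav5 replicate 2 (-0.40, adjusted p = 0.0387). Under TMM scaling chic passed against both groups (-0.39 and -0.47, adjusted p = 0.0440 and 0.0304) and ena against Canton-S (-0.35, adjusted p = 0.0454) in elav5/fne.

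Among signalling genes of the actin cytoskeleton, trio, a guanine nucleotide exchange factor that activates Rac, was at 108, 92.3 and 94.1 normalised CPM in Canton-S, 101, 117 and 86.7 in elav5 and 68.6, 62.9 and 66.6 in elav5/fne. All elav5/fne libraries were the lowest, and trio fell by 0.56 on the log2 scale against Canton-S (SE 0.12, adjusted p = 0.00501) and by 0.60 against elav5 (adjusted p = 0.00507). Cdc42, a small GTPase of filopodia and cell polarity, was at 77.1, 103 and 78.1 in Canton-S, 96.7, 113 and 129 in elav5 and 147, 147 and 144 in elav5/fne. It was highest in elav5/fne and rose by 0.77 against Canton-S (log2, SE 0.14, adjusted p = 0.00159). Its change in elav5 of 0.39 (adjusted p = 0.0892) and that between the mutants of 0.38 (adjusted p = 0.0633) did not pass, but did without Canton-S replicate 2 (0.52 and 0.38, adjusted p = 0.0474 and 0.0397), the latter also without elav5 replicate 3 (0.48, adjusted p = 0.0358).

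Rac1, the GTPase that Trio activates, was at 220.2, 233 and 221 normalised CPM in Canton-S, 253, 268 and 300.5 in elav5 and 222, 208 and 204 in elav5/fne. The elav5 libraries stood above both other groups, and the mutants differed (log2 -0.37, SE 0.09, adjusted p = 0.0125), while elav5 against Canton-S did not pass (0.28, adjusted p = 0.0633). Abl, a tyrosine kinase of axon guidance, was at 225 ± 1.70, 184 ± 33.0 and 189.6 ± 5.53 (SD, n = 3) and did not pass. Without elav5 replicate 2 it passed in both mutants against Canton-S (-0.44 and -0.25, adjusted p = 0.0233 and 0.0481), and under TMM scaling in elav5/fne (-0.39, adjusted p = 0.0253). Sra-1, which is named Cyfip in the annotation, and SCAR, both of the WAVE complex that turns on branched actin, had group means of 45.5 to 56.3 and 112 to 126 normalised CPM and did not pass in any comparison.

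**Figure D5:**
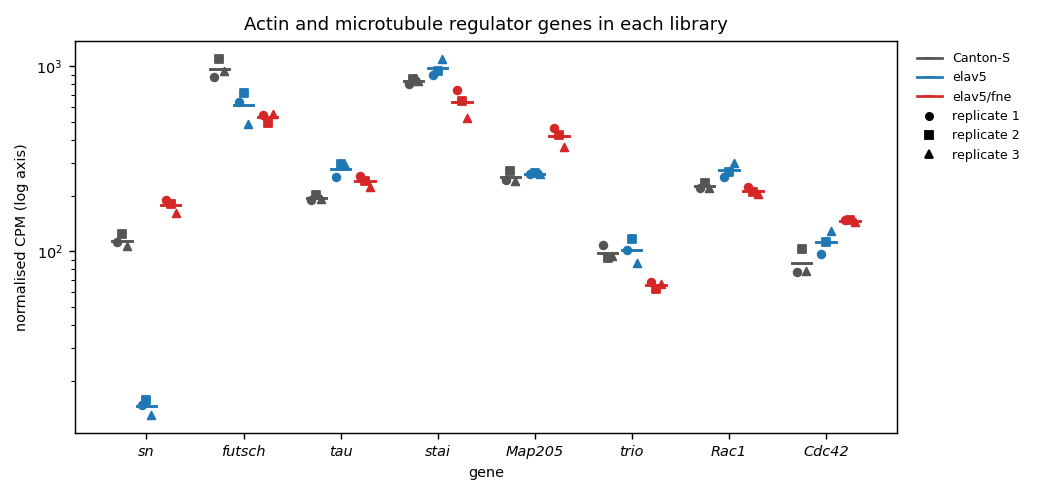
Normalised CPM on a log axis (y) of 8 actin and microtubule regulator genes (x) in each library; colours are genotypes, marker shapes replicate numbers and horizontal lines group means. sn lies at 13.1 to 15.8 in elav5, below all libraries of both other groups, and stai and Rac1 are highest in elav5.

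A wider list of 112 other cytoskeleton genes was set beside the members, of which 109 were in the table and 103 were tested. In elav5, 9 of the 103 were higher and 2 lower, 10.7% in all beside 15.2% of all tested genes. In elav5/fne against Canton-S, 31 were higher and 14 lower, 43.7% in all beside 43.2% of all tested genes, with a median log2 change of 0.19 beside 0.15 for all tested genes. The 21 tested kinesins and motor adaptors of this list held 5 higher and 4 lower genes in elav5/fne, with a median of 0.39, and its 16 dynein and dynactin genes held 2 higher and 2 lower. The 32 actin genes held 14 higher and 3 lower. Over all tested genes 25.8% were called higher and 17.5% lower. Of called genes whose mean reached 10 normalised CPM, the largest rises in elav5/fne were in cher, the filamin gene (12.3 ± 3.07 to 81.4 ± 12.4 normalised CPM, SD, n = 3, log2 2.65, adjusted p = 5.18e-05) and in kst, a heavy spectrin gene (2.60, adjusted p = 0.000798). kst was at 87.2, 31.7 and 21.0 in elav5 replicates 1, 2 and 3 and at 107, 116 and 149 in elav5/fne. Within each mutant this was the order of the muscle sums. The part of other tissues in the rises of this list was not tested.

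With the same limit on the mean, the largest falls in elav5/fne were in ctp, a dynein light chain gene (2292 ± 51.3 to 1071 ± 61.5 normalised CPM, SD, n = 3, log2 -1.10, adjusted p = 8.75e-06), in Unc-76, an adaptor of kinesin-1 (-0.95, adjusted p = 0.000221), and in Pak, a kinase downstream of Rac and Cdc42 (-0.87, adjusted p = 0.00175). In elav5 the largest rises at that limit were in cher (1.43, adjusted p = 0.00837), capu, an actin nucleator gene (1.06, adjusted p = 0.00294), and ringer, a TPPP family gene of microtubules (0.81, adjusted p = 0.00362). The 2 falls there were in Arp2 (-0.70, adjusted p = 0.0208) and Arpc1 (-0.42, adjusted p = 0.0457), subunits of the Arp2/3 complex, which branches actin filaments. Of the other listed subunits, Arpc3B rose (1.84, adjusted p = 0.0171) from a low mean of 1.10 normalised CPM, and Arp3, Arpc2, Arpc3A, Arpc4 and Arpc5 did not pass.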

How the data were processed

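The deposited table gives 1 value per gene for 9 libraries, made with the Lexogen QuantSeq REV kit from 40 ng of total RNA, with genome build dm6, per the labels' protocols and the submitters' processing notes. No source used here names the aligner, the counter or the strand setting: each is not given here. The deposited values are a signal, whole reads per gene divided by 1 size factor per library: dividing by the step of 1 read gave whole numbers, within 0.1, for 100% of values. They were multiplied by 1e6 over the mean column total, keeping the authors' scaling, and are called normalised CPM.

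Gene IDs were joined to the BDGP6.54 annotation, in which 17251 matched and 170 did not. Of the 37 members, 22 overlap another annotated feature, 10 on the same strand, so reads may be shared. milt, for example, overlaps Caper, with a mean of 100.6 normalised CPM.

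limma was fitted with a trend to log2(normalised CPM + 1) over all 9 libraries by genotype, keeping genes whose mean reached 1, with Benjamini-Hochberg adjustment over 9384 genes. Members called with a log2 change of at least 0.5 were named with every library's value, as were alphaTub84B, Khc, Klc and Rac1. The others were given by means or ranges. From the wider list, up to 3 rises and 3 falls per mutant with a mean of at least 10 were named. For elav5/fne, 1 rise that this rule picks is not reported here. Members, lists and tests were chosen with earlier results of these data known. Alternatives were other pseudocounts, filters, scalings and robust eBayes, fits over 2 genotypes, a block for the replicate number, a muscle covariate, libraries left out, and edgeR and DESeq2 on recovered reads. The pipeline was tested on simulated data. Versions were R 4.3.3, limma 3.58.1, edgeR 4.0.16, DESeq2 1.42.0, Python 3.11.15, numpy 2.4.6, pandas 2.3.3 and matplotlib 3.10.9.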

Additional observations from a re-analysis of the deposited data

How the results depend on the processing

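The number of members called was 4 in elav5 against Canton-S, 18 in elav5/fne against Canton-S and 14 in elav5/fne against elav5. In elav5 against Canton-S it was 9 with DESeq2 on recovered reads and 7 with the muscle level as a covariate; the cause was not tested. The other settings stayed within 1.5 times of each count. Leaving out 1 library gave 4 to 6, 13 to 19 and 12 to 15. No source used here states that the replicate number pairs libraries. The correlation of deviations between same-numbered libraries ran from -0.697 to 0.199. With 3 libraries a group, this cannot show whether same-numbered libraries were prepared together. With the replicate number as a block the counts were 4, 13 and 12. Of 4, 18 and 14 calls, 3, 13 and 12 passed in every setting, and no direction changed among the called members. edgeR on recovered reads called 4, 18 and 15 members, and 1384, 4089 and 2498 of all genes. Over all tested genes, elav5 against Canton-S had 1428 calls, and 909 with the block, 707 without Canton-S replicate 1, 732 without Canton-S replicate 2 and 2148 with DESeq2. With 3 libraries a group, members whose changes are near their SE are not resolved.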

Other observations

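The genes next to sn on the X chromosome were looked up after its values were seen. Of the 3 nearest tested genes on the left, orion, Ubr3 and CG15330, none passed in elav5 against Canton-S (log2 0.19, -0.10 and 0.97, adjusted p = 0.270, 0.463 and 0.0780). orion rose in elav5/fne against Canton-S (1.07, adjusted p = 5.01e-05) and against elav5 (0.88, adjusted p = 0.00025), as sn did. On the right, Tbh, which encodes the enzyme of octopamine synthesis, had a mean of 72.5 ± 6.72 normalised CPM with Canton-S, 116 ± 8.80 with elav5 and 40.8 ± 3.93 with elav5/fne (SD, n = 3). It thus rose in elav5 (limma, log2 0.67, adjusted p = 0.00582), where sn fell, and fell in elav5/fne (-0.81, adjusted p = 0.000406), where sn rose. The next genes, CG2233 and fs(1)h, did not pass in elav5 (adjusted p = 0.633 and 0.161). fs(1)h was higher in elav5/fne than in elav5 (0.51, adjusted p = 0.041), as sn was, but did not pass in elav5/fne against Canton-S (0.14, adjusted p = 0.511). CG2233 passed in neither of these comparisons.

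The 36 members together held 0.894% to 1.16% of the reads of each library.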
